A study of Mus musculus with 6 samples.

Results

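The 10 apolipoprotein genes described here, Apoa1, Apoa2, Apoa4, Apoa5, Apob, Apoc1, Apoc2, Apoc3, Apoe and Apom, were taken by gene symbol from a liver RNA-seq table of 24346 genes, and all 10 were among the 11956 genes that passed the filter on low values. The table holds 6 whole-liver libraries from male C57/BL6 mice aged 8 weeks, and every mouse, controls included, had received 1 intraperitoneal dose of CCl4 (0.6 μl per g, in sunflower oil) 24 h before the liver was taken. The 3 controls, labelled wt, were med23f/f mice, which carry floxed copies of Med23, a subunit of the Mediator complex that links transcription factors to RNA polymerase II. The 3 libraries labelled med23 ko were from med23Δli mice, in which Albumin-cre deletes the floxed gene in hepatocytes, so the other liver cells keep Med23. The question set by the design was which liver transcripts differed between these genotypes after acute injury. The labels number the livers of a group without saying that each came from a separate mouse, so p-values measure the spread between these libraries. Values are FPKM, fragments scaled to transcript length and to the mapped fragments of the library, and since read numbers cannot be taken from them the sequencing depth is unknown.

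Apolipoproteins are the protein part of lipoprotein particles, which carry triglyceride and cholesterol through the blood. Hepatocytes are the main source in the liver: Apob forms the backbone of very low density lipoprotein, Apoa1 and Apoa2 that of high density lipoprotein, and the small exchangeable proteins Apoc1, Apoc2, Apoc3, Apoa4, Apoa5 and Apoe move between particles and set how fast their triglyceride is hydrolysed and how they are cleared. Several of the genes lie side by side, and nuclear receptors of the liver such as Hnf4a bind the promoters of many of them.

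Med23 itself read 3.42, 2.97 and 4.14 FPKM in the controls and 3.40, 3.40 and 2.91 FPKM in the libraries labelled med23 ko. The groups overlapped, and the log2 fold change was -0.11 (SE 0.171, adjusted p = 0.686). These are values for the whole gene, and the sources used here do not say which exons are lost, so they do not check the labels. The second group is therefore called the libraries labelled knockout throughout, and each direction below is that of the labelled groups.

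In GRCm38 (mm10) coordinates, Apoa1 (chr9:46228580-46230466), Apoc3 (chr9:46232933-46235636), Apoa4 (chr9:46240696-46243459) and Apoa5 (chr9:46268633-46271919) form a cluster on chromosome 9, with Apoc3 on the minus strand and the others on the plus strand. A second cluster on the minus strand of chromosome 7 holds Apoc2 (chr7:19671579-19677941), Apoc1 (chr7:19689481-19692660) and Apoe (chr7:19696109-19699188), with Apoc4 (chr7:19678083-19681479) between Apoc2 and Apoc1. Apoa2 (chr1:171225054-171226379, plus strand), Apob (chr12:7977648-8016835, plus strand) and Apom (chr17:35128997-35132050, minus strand) stand alone. The annotated read-through gene Gm44805 (chr7:19671584-19681423) spans Apoc2 and Apoc4 on the same strand, so the counting of Apoc2 reads is uncertain. Antisense genes overlap Apoa4 and Apoa5, and whether reads were counted by strand was not stated.

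Promoter sequence, from 250 bases before to 50 bases after a start site, was given by RefSeq for 8 of the 10 genes (12 promoters, GRCm38.p6). The 250 bases before each start were searched on both strands for AGGTCA and GGGTCA, letters that nuclear receptors are known to bind, which were chosen after the promoters and values had been seen. The stretches below are those found in the 3 genes that fell and had a promoter to search, and in Apoe, with the matched letters in capitals and read 5′ to 3′ on the strand of the gene. Apoc3 and Apoc1 had no entry.
Apoc2, chr7:19678039-19678068, minus strand: tcttgaggccagAGGTCAaccttccgtcat
Apoa5, chr9:46268492-46268521, plus strand: agtaaccagctgGGGTCAtccttctttgac
Apom, chr17:35131816-35131845, minus strand: tagcaggttaaaGGGTCAagggtcgaggcg
Apom, chr17:35131940-35131969, minus strand: ctcagagtcactGGGTCAtgcccgggtata
Apoe, chr7:19699199-19699228, minus strand: gaggggagcgggGGGTCAcaaggcatccaa

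The Apoc2 match lay at -115 to -110 relative to the start site, in the short interval between Apoc2 and Apoc4. Apoa5 had its match at -129 to -124 from the start at 46268633 and a further one, in the opposite orientation, at -115 to -110. The Apom matches lay at -32 to -27 and -156 to -151 from a start at 35131801, and that of Apoe at -28 to -23. This Apom start lies inside the gene interval given above, as do both Apom stretches. Of 32851 mouse promoters, 14% held AGGTCA and 11.6% held GGGTCA, against 2 and 4 of the 12 apolipoprotein promoters. Either hexamer was held by 23.8% of all promoters and by 6 of the 12. These 12 are not independent, since a gene can have several: the 2 Apoa5 promoters overlap and hold the same matches. The letters TATAAA, searched on the strand of the gene, were held by 7.59% of all promoters and by 5 of the 12, those of Apoa2, Apoa5, Apob and Apoe. Apoa2, a gene whose level differed by less than the spread between libraries, also held AGGTCA, before an alternative start. A match is a description of letters in this window and was not tested as a binding site.

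Of the 10 genes, 4 were lower in the libraries labelled knockout at an adjusted p under 0.05 (Apoa5, Apoc2, Apoc3 and Apom), against a background of 9.48% of all genes tested. None of the 10 passed the limma test in the other direction (background 11.6%), nor was any higher at an unadjusted p under 0.05 (background 20.5%), where 6 were lower (background 17.1%). For the 843 genes that averaged 100 FPKM or more, where all 10 lie, the background was 7.59% lower and 17.8% higher. The median log2 fold change of the 10 was -0.60, beside 0.02 for all genes tested. Only Apoc2 also changed by more than 2-fold, as taken from the log2 fold change (background 7.9% of genes tested, 3.45% lower and 4.45% higher). The groups did not overlap for 6 of the 10 genes, beside 43.7% of all genes tested (20.4% lower and 23.3% higher). Of these 6, Apob was the 1 gene that lay higher.

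**Figure D1:**
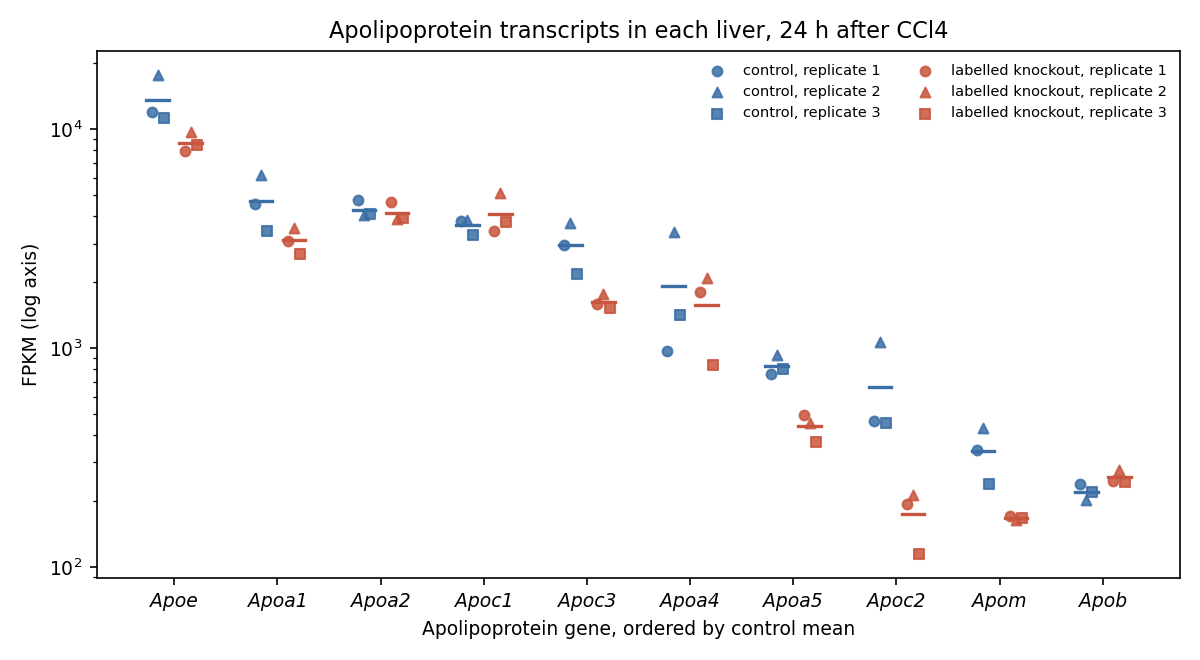
FPKM of each apolipoprotein gene (log axis) in the 3 controls and the 3 libraries labelled knockout, with 1 point per library, a marker shape for each replicate number, and bars at the group means. Apoa5, Apoc2, Apoc3, Apoe and Apom lie lower without overlap, Apob lies higher without overlap, and the groups overlap for Apoa1, Apoa2, Apoa4 and Apoc1.

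Control replicate 2 stood apart from the other controls for these genes. It was the highest control for 8 of the 10, and it exceeded the mean of the other controls by 2.86 times for Apoa4, 2.31 times for Apoc2, 1.54 times for Apoa1 and 1.53 times for Apoe. Among the libraries labelled knockout, replicate 2 was highest for 7 genes and replicate 3 lowest for 6. Labelled knockout replicate 2 also stood apart in adipocyte markers, with Adipoq at 5.65 FPKM against 0 and 0.0907 FPKM in the other labelled knockouts, Plin1 at 2.76 FPKM and Ucp1 at 2.29 FPKM against 0 FPKM in each of the other 5 libraries, and Fabp4 at 177 FPKM against 23.2 and 32.0 FPKM (53.2 to 66.3 FPKM in the controls). The part of these markers in the values was not tested, and without this library Apoa5 and Apoc2 were the members that passed. The change of each of the 10 genes is therefore also given without control replicate 2.

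Apoc2, the cofactor that lipoprotein lipase needs to hydrolyse triglyceride, had the largest change of the 10. It read 465, 1065 and 456 FPKM in the controls and 194, 213 and 115 FPKM in the libraries labelled knockout. All 3 labelled knockouts lay below all 3 controls, at 26.2% of the control mean, although control replicate 2 was far above the others. The log2 fold change was -1.86 (SE 0.366, adjusted p = 0.0138), and without control replicate 2 the adjusted p was 0.0193 and the fold change, the smallest over the 6 libraries left out in turn, was -1.46. Without replicate 3 of the libraries labelled knockout, its lowest library, the call was lost at -1.58 (adjusted p = 0.0577). The neighbouring Apoc4 read 1063, 1516 and 669 FPKM in the controls and 930.1, 1047 and 879 FPKM in the libraries labelled knockout, and did not pass (log2 fold change -0.11, adjusted p = 0.80). The table also has a read-through row, Apoc4-apoc2, at 3.44, 10.7 and 0 FPKM in the controls and 4.63, 6.02 and 7.58 FPKM in the libraries labelled knockout, which is small beside Apoc2.

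Apoc3, which inhibits lipoprotein lipase and slows clearance of remnants, fell less. Its values were 2946, 3727 and 2170.3 FPKM in the controls against 1593, 1767 and 1517 FPKM. The controls were spread widely and the labelled knockouts narrowly, at 55.1% of the control mean, and the groups did not overlap. The log2 fold change was -0.83 (SE 0.211, adjusted p = 0.0309). This call was lost on leaving out control replicate 1 (adjusted p = 0.0872) or 2 (log2 fold change -0.64, adjusted p = 0.0585), or replicate 1, 2 or 3 of the libraries labelled knockout (0.0988, 0.0803 and 0.106).

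Apoa5, an activator of triglyceride hydrolysis at the vessel wall, had the tightest controls of the 4 that fell. It read 758, 931 and 806 FPKM in the controls and 493, 455 and 372 FPKM in the libraries labelled knockout, a mean of 832 ± 89.4 (SD, n = 3) against 440.2 ± 61.9 (SD, n = 3). Every labelled knockout was below every control. The log2 fold change was -0.92 (SE 0.16, adjusted p = 0.00944), and without control replicate 2 it was -0.84 (adjusted p = 0.0223). It passed without each of the 6 libraries in turn, with adjusted p values up to 0.0406. None of the other 9 genes did so.

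Apom, a lipocalin that carries sphingosine-1-phosphate on high density lipoprotein, read 341, 430 and 239 FPKM in the controls. In the libraries labelled knockout it read 171, 164 and 167 FPKM, a spread of 2.15% of the mean against 28.3% in the controls. The labelled knockouts were nearly level, at 49.6% of the control mean, and all below the lowest control. The log2 fold change was -0.97 (SE 0.209, adjusted p = 0.018), and without control replicate 2 it was -0.77 (adjusted p = 0.0323). The call was lost without control replicate 1 (0.0534) and without replicate 1, 2 or 3 of the libraries labelled knockout (0.0646, 0.0685 and 0.0664), at fold changes close to the full value.

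Apoe, the ligand by which remnants bind hepatic receptors, was the most abundant of the 10 and ranked 3 by mean FPKM in the whole table. Its values were 12021, 17726 and 11204 FPKM in the controls and 7932, 9674 and 8443 FPKM in the libraries labelled knockout. The groups did not overlap, yet the log2 fold change of -0.63 (SE 0.215) did not pass over all genes (adjusted p = 0.072), and without control replicate 2 it was -0.42 (adjusted p = 0.133). The Apoe result depended on the scaling, since quantile normalization turned it to 0.021 (adjusted p = 0.945) and scaling without the 50 most abundant genes let it pass (-0.73, adjusted p = 0.0275). Macrophages also make Apoe. Of the 11 Kupffer cell and macrophage markers 1, C1qa, was lower (background 9.48%), 4 were lower and 0 higher at an unadjusted p under 0.05 (background 17.1% and 20.5%), with a median log2 fold change of -0.31, and their summed level was 385 to 534 FPKM in the controls and 409 to 416 FPKM in the libraries labelled knockout. The C1qa call held only without control replicate 1, with adjusted p values up to 0.141 without the other libraries. The part of these macrophage markers in the Apoe values was not tested.

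Apoa1, the main protein of high density lipoprotein, read 4561, 6141 and 3427 FPKM in the controls and 3088, 3537 and 2695 FPKM in the libraries labelled knockout. Labelled knockout replicate 2 lay above control replicate 3, so the groups overlapped. The log2 fold change of -0.57 (SE 0.233) did not pass (adjusted p = 0.116), and it ranged from -0.36 without control replicate 2 (adjusted p = 0.253) to -0.78 without control replicate 3, where it passed (adjusted p = 0.036). Apoa2, the second protein of these particles, was close between groups, at 4732, 4041 and 4096 FPKM in the controls against 4625, 3888 and 3917 FPKM. Its 95% interval ran from -0.41 to 0.31 around a log2 fold change of -0.05 (adjusted p = 0.838), which was -0.09 without control replicate 2.

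Apoa4, a protein of triglyceride-rich particles that is also made in intestine, was the most variable of the 10. It read 964, 3398 and 1409 FPKM in the controls and 1796, 2092 and 837 FPKM in the libraries labelled knockout. Both groups ranged widely, with a coefficient of variation of 67.4% for the controls against 41.6% for the labelled knockouts. The log2 fold change of -0.18 had a 95% interval from -1.33 to 0.96 (adjusted p = 0.814), and it turned to 0.33 without control replicate 2 and to 0.22 without labelled knockout replicate 3. Of the 7 intestinal markers, Lct and Sis were at 0 in every library, while Fabp2 read 14.8 to 41.7 FPKM and Slc5a1 0.25 to 1.04 FPKM, and their part in the Apoa4 values was not tested.

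Apob read 239, 202 and 219 FPKM in the controls and 248, 278 and 245 FPKM in the libraries labelled knockout. All labelled knockouts were above all controls, but the log2 fold change of 0.22 (SE 0.132) did not pass (adjusted p = 0.253), nor did the 0.16 found without control replicate 2 (adjusted p = 0.423). Apoc1, which inhibits lipoprotein lipase, read 3804, 3856 and 3284 FPKM in the controls against 3442, 5116 and 3774 FPKM. The groups overlapped, with 1 high library, labelled knockout replicate 2, without which the log2 fold change of 0.15 (adjusted p = 0.581) turned to -0.01. Without control replicate 2 it was 0.20 (adjusted p = 0.551).

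**Figure D2:**
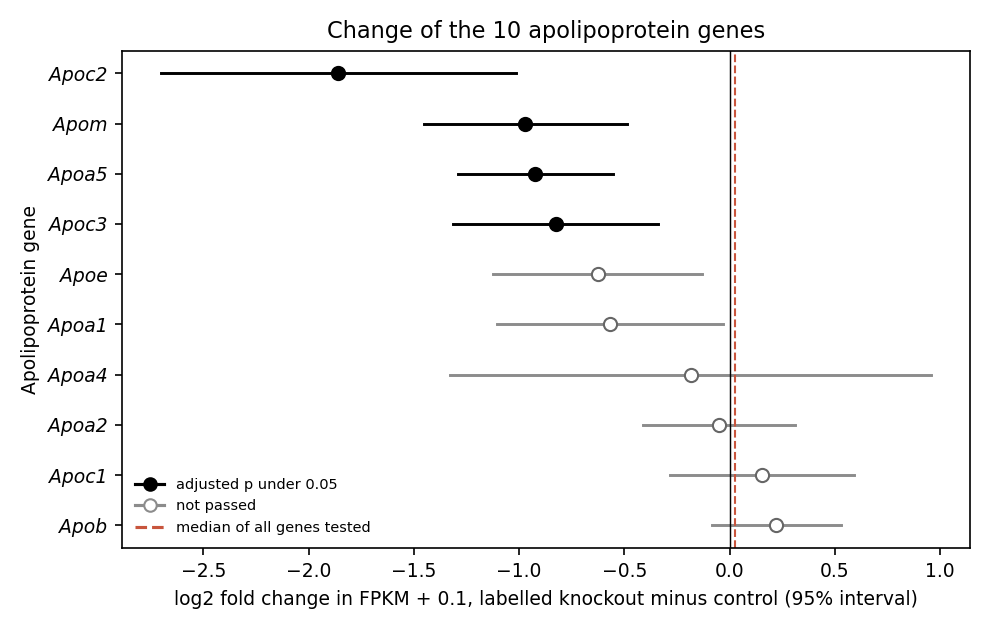
Log2 fold change of each gene (x axis, labelled knockout minus control, on log2 of FPKM + 0.1) with its unadjusted 95% interval, filled where the adjusted p was under 0.05. Apoc2 at -1.86 lies furthest from 0, Apom, Apoa5 and Apoc3 lie between -0.97 and -0.83, and the dashed line at 0.02 marks the median of all genes tested.

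The order of the levels, in FPKM and so per kilobase of transcript, was not the same in the groups. In the controls the group means ran Apoe, Apoa1, Apoa2, Apoc1, Apoc3, Apoa4, Apoa5, Apoc2, Apom and Apob, from 13650.0 down to 220.2 FPKM. By group means, in the libraries labelled knockout Apoa2 and Apoc1 stood above Apoa1, and Apob stood above Apoc2 and Apom. Between neighbours in the order of the controls, the ranges overlapped for Apoa1 and Apoa2, Apoc1 and Apoc3, Apoc3 and Apoa4, and Apoa5 and Apoc2. The wide ranges of Apoa1 (3427 to 6141 FPKM) and Apoa4 (964 to 3398 FPKM) also reached that of Apoc1 (3284 to 3856 FPKM). Between neighbours in the other group they overlapped for Apoa2 and Apoc1, Apoc1 and Apoa1, Apoc3 and Apoa4, and Apoc2 and Apom, while Apob (245 to 278 FPKM) lay above Apoc2 (115 to 213 FPKM).

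Together the 10 genes made up 4.83%, 6.38% and 4.55% of all FPKM in the controls and 3.88%, 4.17% and 3.73% in the libraries labelled knockout. Their summed level was 33220.4 ± 7398.5 FPKM (SD, n = 3) against 24281.9 ± 2621.9 FPKM (SD, n = 3), and no labelled knockout reached the lowest control. On the log2 scale the sums differed by -0.43 (exact two-sided permutation test, p = 0.1, the smallest that 3 against 3 libraries can give). Without control replicate 2 the difference was -0.26. Apoe dominated the sum, with 39.0 to 42.7% of it in the controls and 33.6 to 38.2% in the libraries labelled knockout. Within the sum, the share of Apoc1 was 11.2 ± 1.68% in the controls against 16.8 ± 2.12% (SD, n = 3), while that of Apoc2 was 1.92 ± 0.569% and 0.708 ± 0.165%.

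**Figure D3:**
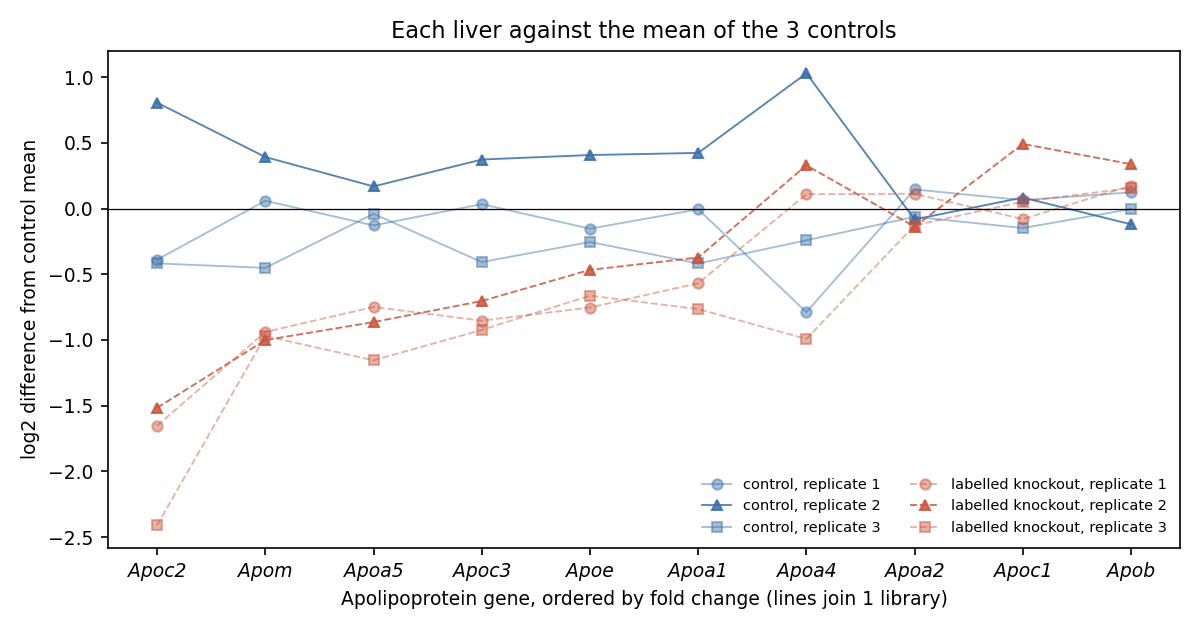
Each library's log2 difference (y axis) from the mean log2 level of the 3 controls, for the 10 genes in order of fold change, with solid lines for controls and dashed lines for libraries labelled knockout. Control replicate 2 lies highest from Apoc2 to Apoa4 and falls back to the others at Apoa2, Apoc1 and Apob.

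Ratios of 2 genes within a library are the same under any scaling that multiplies a whole library by 1 factor, though not under quantile normalization, and they were taken for 6 pairs of genes of 1 cluster. Apoc2 over Apoc1 was 0.122, 0.276 and 0.139 in the controls and 0.0563, 0.0416 and 0.0304 in the libraries labelled knockout, a log2 difference of -2.01. Apoe over Apoc1, on the same strand of chromosome 7, was 3.16, 4.60 and 3.41 against 2.31, 1.89 and 2.24, a log2 difference of -0.78. Apoc3 over Apoa1, adjacent on chromosome 9, was 0.646, 0.607 and 0.633 against 0.516, 0.499 and 0.563, a log2 difference of -0.26. In each of these 3 ratios every labelled knockout was below every control, and without control replicate 2 the differences were -1.65, -0.62 and -0.28. Each had an exact two-sided permutation p of 0.1, the smallest possible, and an adjusted p of 0.2 over the 6 pairs, so the design could not pass the threshold.

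The other ratios overlapped between groups. The log2 difference was -0.35 for Apoa5 over Apoa1 (exact p = 0.2), 0.64 for Apoa4 over Apoc3 (exact p = 0.3) and 0.38 for Apoa4 over Apoa1 (exact p = 0.5). The last of these turned to -0.01 without control replicate 1. A further 2 pairs were added after the values were seen. Apoc2 over Apoc4 was 0.438, 0.703 and 0.682 in the controls and 0.209, 0.203 and 0.13 in the libraries labelled knockout, a log2 difference of -1.75. Apoc2 over Apoc3, the cofactor over the inhibitor of lipoprotein lipase, was 0.158, 0.286 and 0.21 against 0.122, 0.121 and 0.0755, a log2 difference of -1.03. Neither overlapped between groups, each with an exact p of 0.1.

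**Figure D4:**
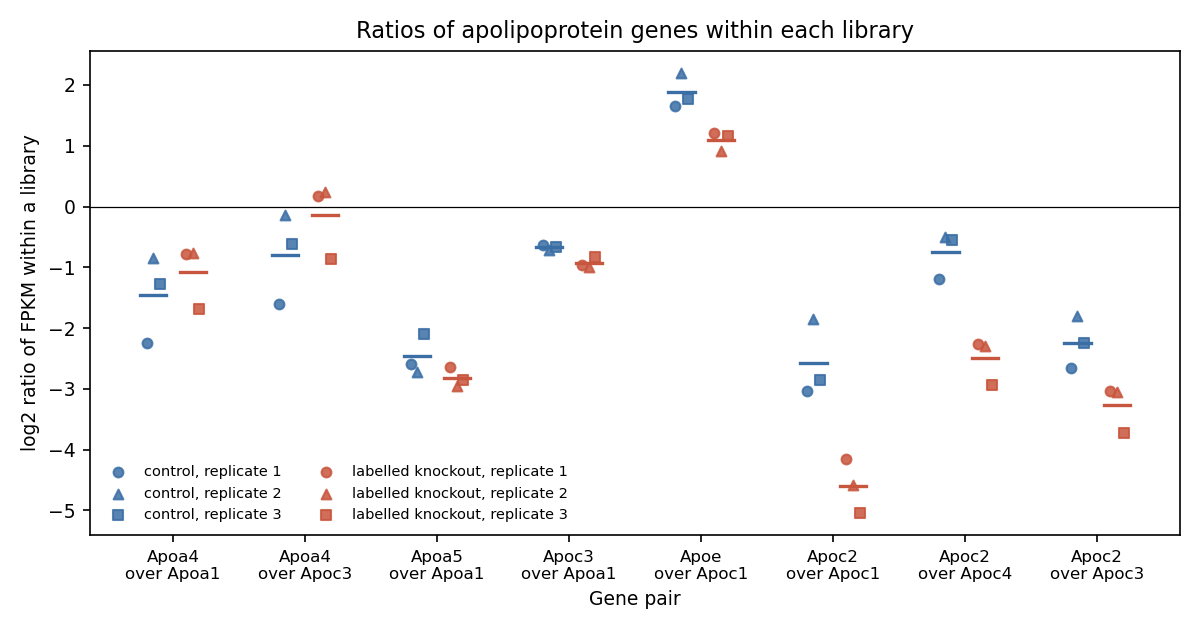
Log2 ratio of FPKM (y axis) for 8 gene pairs within each library, with 1 point per library and bars at group means, the last 2 pairs added after the values were seen. The groups separate for Apoc3 over Apoa1, Apoe over Apoc1 and each Apoc2 pair, and they overlap for Apoa4 over Apoa1, Apoa4 over Apoc3 and Apoa5 over Apoa1.

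Across the 6 libraries, after centring each gene on its own mean, the pair of the 10 with the smallest root mean square difference was Apoc3 and Apom (0.108 on the log2 scale), followed by Apoa1 and Apoe (0.127), although neither pair shares a cluster. The genes tested with profiles most like that of Apoc2 were Mup21 (0.109), G6pdx (0.182) and Nudt16 (0.242). Mup21, a major urinary protein, read 173, 389 and 188 FPKM in the controls and 67.7, 69.8 and 38.6 FPKM in the libraries labelled knockout, so it too was highest in control replicate 2 and lowest in labelled knockout replicate 3. For Apom they were Msrb2 (0.0477) and Mpg (0.0653), and for Apoa5 Gpr4 (0.0524), Wibg (0.0544) and Mustn1 (0.0565). With 6 libraries and 11956 genes, such likeness is a description.

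The marker genes of liver cells frame these values. The hepatocyte marker Alb read 12624 to 22376 FPKM, so the livers carried the defining transcript of their tissue. None of the 7 in the table passed the limma test (1 was lower at an unadjusted p under 0.05), with a median log2 fold change of -0.30. Their summed level was 38440 to 45120 FPKM in the controls against 32645 to 38706 FPKM. With libraries rescaled to these markers, Apoa5, Apoc2 and Apom still passed as lower and Apoc3 did not (adjusted p = 0.0519). All 7 endothelial markers were lower (background 9.48%, summed 83.8 to 120.9 FPKM against 44.9 to 48.1 FPKM). Kdr, Stab2 and Clec4g passed without each library in turn. The Pecam1, Lyve1, Cdh5 and Tek calls were each lost without at least 1 library, with adjusted p values up to 0.0515, 0.0971, 0.0571 and 0.0846. Of the periportal hepatocyte markers 4 of 10 were lower (background 9.48%) and of the pericentral markers 3 of 7 tested were higher (background 11.6%), but neither list moved 1 way. The periportal Cdh1 and pericentral Axin2 calls held only without control replicate 3, with adjusted p values up to 0.109 and 0.105 without the other libraries. The periportal Sds call was lost without labelled knockout replicate 1 (0.0706) or 3 (0.0601). At an unadjusted p under 0.05, 5 periportal markers were lower and 2 higher, Aldh1b1 (log2 fold change 0.89) and Pck1 (0.63), and 3 pericentral markers were higher and 1, Rhbg, lower (-0.73). Of 9 stellate cell markers 2, Des and Ecm1, were lower (background 9.48%), with a median log2 fold change of -0.46 (summed 168.5 to 213.9 FPKM against 112 to 147 FPKM). At an unadjusted p under 0.05, 3 were lower (background 17.1%) and 1, Reln, was higher (0.47, background 20.5%). The Des call held only without control replicate 3 and the Ecm1 call only without control replicate 1, with adjusted p values up to 0.149 and 0.103 without the other libraries. The part of these shifts in the apolipoprotein values was not tested, and in whole liver fewer cells of a type and less RNA per cell cannot be told apart.

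Of 21 other apolipoprotein genes listed, 14 were tested, 3 were higher (background 11.6%) and none was lower by limma (background 9.48%), at an adjusted or an unadjusted p under 0.05. The difference from the 10 genes was not tested, and the lowest of these values, -0.67 for Apol9a, had a 95% interval from -1.68 to 0.34. The 3 were Apoo and Apool, whose proteins sit in the mitochondrial contact site complex, and Apobr, a macrophage receptor for Apob particles. Apool passed without each library in turn (log2 fold change 0.99, adjusted p = 0.00776), whereas the Apobr call held only without control replicate 3 and the Apoo call only without control replicate 1, each lost without any of the other libraries, with adjusted p values up to 0.135 and 0.155. Apoh, Apof and Apon, abundant plasma apolipoproteins, had log2 fold changes of 0.06, -0.23 and -0.05 and did not pass.

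Of the 32 genes for assembly, editing and secretion of lipoproteins, 9 were lower (background 9.48%) and 2 higher (background 11.6%), with a median log2 fold change of 0.00. Mttp, which loads lipid onto Apob, read 70.0, 76.7 and 59.7 FPKM in the controls and 46.3, 51.1 and 41.9 FPKM in the libraries labelled knockout (log2 fold change -0.56, adjusted p = 0.0326). Its call was lost without control replicate 1 or 2 or any 1 of the libraries labelled knockout, at adjusted p values from 0.069 to 0.111. Apobec1, the editing enzyme that gives the short form of Apob, read 10.1, 7.77 and 9.0 FPKM in the controls and 17.0, 15.9 and 20.2 FPKM in the libraries labelled knockout (log2 fold change 0.97, adjusted p = 0.0072), and passed without each library in turn. The largest falls on this list were Cidec, a lipid droplet protein (-3.24, adjusted p = 0.0161), and Syvn1, a ubiquitin ligase of the endoplasmic reticulum (-1.59, adjusted p = 0.0013). Cidec lost its call without labelled knockout replicate 1 (0.0511) or 3 (0.0502).

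Among 17 plasma enzymes, transfer proteins and inhibitors tested, 2 were lower and 2 higher, close to the shares of all genes tested (9.48% lower and 11.6% higher), with a median of 0.21. Gpihbp1, the endothelial anchor of lipoprotein lipase, fell (log2 fold change -1.04, adjusted p = 0.0146). Gpihbp1 lost the call without any 1 of the libraries labelled knockout (adjusted p from 0.0538 to 0.0597). Endothelial cells make Gpihbp1, and all 7 of their markers were lower (background 9.48%), though the Pecam1, Lyve1, Cdh5 and Tek calls depended on single libraries. The part of those cells in the Gpihbp1 value was not tested. Pon1 and Pon3, esterases of high density lipoprotein, rose by 0.82 and 0.75, Pon1 losing its call without labelled knockout replicate 1 (adjusted p = 0.0548). Lipoprotein lipase itself, Lpl, stood at a log2 fold change of 0.43 (adjusted p = 0.188), Lcat -0.20 (0.267) and Pltp -0.17 (0.632). Lpl was highest in labelled knockout replicate 2, the library with adipocyte markers, and stood at 0.23 without it. Hepatic lipase, Lipc, stood at 0.60 (adjusted p = 0.0538), and it passed after median centring (0.0485), with robust variances (0.0479), after scaling to hepatocyte markers (0.019) and without control replicate 1 (0.0297).

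Of 26 receptors, exporters and uptake genes tested, 6 were lower (background 9.48%) and 6 higher (background 11.6%), with a median of -0.13. Scarb1, the receptor for high density lipoprotein, fell by 0.70 on the log2 scale (adjusted p = 0.0252), a call lost without control replicate 1 or 2 or labelled knockout replicate 1 or 3 (adjusted p from 0.0576 to 0.0972). Stab2, a scavenger receptor of endothelial cells, fell by 1.05. Vldlr, a receptor for Apoe that is low in healthy liver, rose by 2.55 (adjusted p = 0.017), from 0.255 to 1.76 FPKM in the controls to 3.44 to 5.67 FPKM, and lost its call without control replicate 1 (0.0534) or labelled knockout replicate 1 (0.0659) or 3 (0.067). The transporters Abca8a and Abca8b rose by 2.06 and 1.64, and Soat2, which esterifies cholesterol for Apob particles, by 1.19. Abca1, which loads lipid onto Apoa1, had a log2 fold change of -0.46 and did not pass (adjusted p = 0.383). It ranged from -0.15 without control replicate 1 (adjusted p = 0.786) to -0.88 without control replicate 3 (adjusted p = 0.0324).

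The regulators known to act on apolipoprotein promoters moved both ways, 7 of 35 lower (background 9.48%) and 6 higher (background 11.6%), with a median of 0.07. The forkhead factor Foxa3 fell by 1.36 on the log2 scale (adjusted p = 0.00346) and passed without each library in turn. Creb3l3, an activator of Apoa4, Apoa5 and Apoc2 transcription, read 153, 246 and 210.4 FPKM in the controls and 134, 128 and 106 FPKM in the libraries labelled knockout (log2 fold change -0.71, adjusted p = 0.0402), and lost its call without control replicate 2 or 3 or any 1 of the libraries labelled knockout (adjusted p from 0.0667 to 0.13). Hnf4a had a log2 fold change of -0.55 and did not pass (adjusted p = 0.126), although it did after quantile normalization (-0.66, adjusted p = 0.0485). Without 1 library it ranged from -0.29 (without control replicate 1, adjusted p = 0.248) to -0.78 (without control replicate 3, adjusted p = 0.0241).

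Nuclear receptors of other classes were among those that rose: Pparg by 2.28 (adjusted p = 0.00237) and Nr1d2 by 2.16 (0.00764), while Rxrg fell by 2.12 (0.00584). Pparg was highest in labelled knockout replicate 2, the library with adipocyte markers, and still passed without it (2.04, adjusted p = 0.00925). Another forkhead factor, Foxo3, which is known to be active when insulin signalling is low, rose by 1.51. Ppara (-0.15, adjusted p = 0.636), Rora (0.31, adjusted p = 0.487) and Nr1d1 (0.92, adjusted p = 0.216) did not pass. Whether any of these regulators acts on the apolipoprotein levels was not tested.

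**Figure D5:**
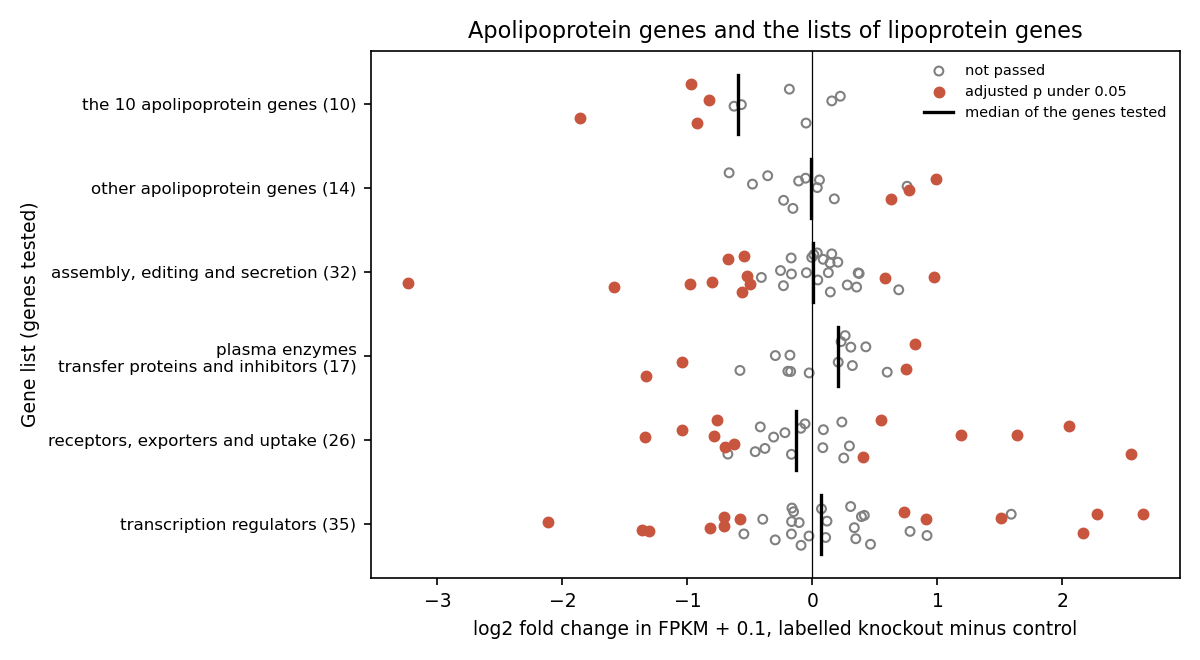
Log2 fold changes (x axis) of the 10 apolipoprotein genes and of 5 lists of genes that make, process, take up or regulate lipoproteins, with 1 point per gene tested, filled where the adjusted p was under 0.05, and a bar at each median. The median of the 10 apolipoprotein genes lies at -0.60, and the medians of the 5 lists lie between -0.13 and 0.21.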

How the data were processed

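Whole-liver RNA-seq of 3 control and 3 labelled knockout livers was used. The authors trimmed reads, checked them with FastQC, used TopHat for alignment to UCSC mm10 and Cuffdiff for the FPKM, with versions, annotation and options not given in the sources used here. The deposited values are FPKM per library for 24346 genes. The authors' group means, fold changes, p-values and q-values stand in the same table and were not used. No pair of libraries held duplicate values, and every value column was matched to a labelled sample. Depth is unknown, so no counting interval could be given.

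The 11956 genes that averaged 0.5 FPKM or more were compared as log2(FPKM + 0.1), a scale that understates changes of low genes, with limma 3.58.1 in R 4.3.3 (lmFit, eBayes with trend) and Benjamini-Hochberg adjustment over all genes tested. The test was run first on simulated data. Sums and ratios had exact two-sided permutation tests (scipy 1.17.1). Positions came from GENCODE release M 21 and promoters from RefSeq. The members, lists and tests were chosen with earlier results of these data known, so no list is independent evidence. Named genes are the 10 members, Med23, 14 set genes of lipid transport and its control, the called list genes past 2-fold (at most 4 each way per list) and the 3 genes most like each of the 3 members with the largest change. Some genes that this rule takes are not reported here. The other genes named, called list members and neighbours among them, were chosen after their values were seen. Alternatives were other pseudocounts, filters, scalings and variance models, a replicate block, and each library left out.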

Additional observations from a re-analysis of the deposited data

How the results depend on the processing

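With 3 libraries a group and no read counts, the spread between libraries is the only error, and calls near the threshold moved with single libraries. The 4 falls (Apoa5, Apoc2, Apoc3, Apom) passed with a pseudocount of 1 or 0.01, a filter at 1 FPKM, median centring, quantile normalization, no variance trend and robust variances. The Apoc3 call was lost with no filter (adjusted p = 0.0884) and after scaling to hepatocyte markers (0.0519), a scaling that moved the median of all genes from 0.02 to 0.21. Scaled without the 50 most abundant genes, 6 members were lower, Apoa1 (-0.67, adjusted p = 0.041) and Apoe (-0.73, 0.0275) included. Quantile normalization turned Apoe, 1 of the few most abundant genes, to 0.021. The causes of these differences between settings were not tested.

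Without 1 library at a time, the members lower ranged from 1 (without labelled knockout replicate 3) to 5 (without control replicate 3), and those past 2-fold from 0 to 3, for the same libraries. There were 3 past 2-fold after quantile normalization and after scaling without the 50 most abundant genes. Over all genes, the count higher ranged from 397 to 1723 and the count lower from 343 to 1420, lowest without labelled knockout replicate 1, with fewer libraries in the fit, and 443 were lower after hepatocyte scaling. In the same way the lists ranged from 1 to 2 calls (other apolipoprotein genes), 2 to 12 (assembly), 2 to 5 (plasma enzymes), 5 to 13 (receptors) and 7 to 15 (regulators). Other apolipoprotein genes had 1 call with no filter and 1 when scaled without the 50 most abundant genes, and hepatocyte scaling left 7 for assembly and 7 for receptors. The last scaling lost the calls on Mttp (-0.38, adjusted p = 0.191), Scarb1 (-0.51, 0.0884) and Creb3l3 (-0.52, 0.173), and Creb3l3 was also lost with no filter (0.0683) and no variance trend (0.0544).

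Some unpassed values changed sign. Without 1 library, Med23 ranged from -0.22 to 0.017, Apoa2 from -0.13 to 0.022, Apoa4 from -0.58 to 0.33, Apoc1 from -0.014 to 0.27, Pltp from -0.42 to 0.093, Rora from -0.0077 to 0.59 and the log2 ratio of Apoa4 over Apoa1 from -0.0072 to 0.69. Under hepatocyte scaling Med23 was 0.076, Apoa2 0.13, Pltp 0.0071 and Ppara 0.031, and Apoa2 was 0.016 under quantile normalization.

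The values showed no sign that replicate numbers pair the samples: the deviations of same-numbered libraries from their group means correlated at -0.02, -0.05 and -0.12. With 3 libraries a group this cannot settle whether they were paired. With the number as a block, 809 genes were higher and 614 lower, the same 4 members passed and Apoe joined them (adjusted p = 0.0456), Creb3l3 did not pass (0.0632), other apolipoprotein genes had 1 call and assembly had 7. In a paired sign test of the sum the exact p was 0.25, the smallest that 3 pairs allow.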
